A study of Homo sapiens with 15 samples.

Results

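RNA from 3 libraries of RPMI-8226 cells treated with 100 nM KB528 for 6 h was compared with RNA from 3 libraries of the same cells given DMSO, the solvent control labelled as 0 h. RPMI-8226 is an established human multiple myeloma line, labelled wild type, and the series' design text names KB528 as an inhibitor of the lysine acetyltransferase (KAT) activity of p300. The deposited table also holds 3 libraries each at 1, 3 and 24 h of KB528, so that these 6 libraries are part of 15 in 5 groups. All gene rows with a mean of at least 1 TPM (a transcript level already divided by length and library total) over the 15 libraries were taken, which gave 12002 of 26364 gene rows, or 45.5%. The 92 ERCC spike-in rows were left out. The labels do not state whether libraries of 1 group are separate cultures. The p-values here therefore rest on library-to-library spread, part or all of which may be technical. The sample titles and the series design name the control libraries DMSO, while their column headers read no treatment at 0 hour. If they had no solvent, an effect of solvent cannot be told apart from one of KB528. DMSO was sampled at 0 h only, and 6 h of handling in culture cannot be told apart from 6 h of KB528.

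The protein p300, encoded by EP300, and its close relative CBP, encoded by CREBBP, are coactivators that bind enhancers and promoters and acetylate histone tails and other proteins there. Bromodomain proteins bind acetylated lysines, and some of them bring the elongation kinase P-TEFb to RNA polymerase II. Myeloma cells are malignant plasma cells, and they depend on IRF4, a transcription factor of the plasma cell state named in the series title, and on MYC, which IRF4 is known to activate.

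Within groups, libraries had correlations across genes of 0.995 to 0.998, and no 2 of the 15 were identical (0 pairs). ERCC rows took 11.3%, 14.8% and 13.8% of the TPM of the DMSO libraries and 14.5%, 11.5% and 9.35% at 6 h. TPM keeps no absolute depth, but the steps between the lowest values put the TPM worth of 1 read at 0.896 to 1.32 times that of DMSO replicate 1 across the 15 libraries. All 12 plasma cell markers passed the filter, with a summed level of 7961 to 8769 TPM in DMSO and 6327 to 6529 TPM at 6 h. Of 10 T and NK cell markers with a row, 2 passed, their summed level was at most 3.72 TPM in any of the 6 libraries, and 4 were at 0 in all 6. Of 10 fibroblast and endothelial markers 0 passed, and their sum was at most 0.805 TPM. Of 10 myeloid markers 3 passed, led by the lysosomal protein gene CD68 at 52.2 ± 3.9 TPM in DMSO. Epithelial genes were present in this line, with 8 of 14 markers passing, among them EPCAM at 113 ± 3.11 TPM and KRT18 at 147 ± 1.4 TPM in DMSO. Their summed level was 370.3 to 381 TPM in DMSO and 285 to 305 TPM at 6 h. Of these 8, 7 were lower at 6 h (3 with spike-in scaling). Of 8 erythroid markers 3 passed, and HBA2, an alpha globin gene whose reads can be shared with HBA1, was lower (not passed with spike-in scaling). The part of these genes in the other results was not tested. In RNA from a whole culture, fewer cells of a kind and less RNA per cell cannot be told apart.

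At 6 h, 5327 of the 12002 genes were higher than in DMSO (44.4%) and 2945 were lower (24.5%), together 68.9%. The test was limma on log2(TPM + 1) over all 15 libraries, with Benjamini-Hochberg adjustment and a threshold of 0.05, and log2 fold changes below are on that scale, which understates the change of low genes. All 3 libraries at 6 h lay above all 3 DMSO libraries for 5314 genes (44.3%) and below them for 2889 (24.1%). The counts were reversed among large changes. At least 2-fold differences that passed the test numbered 116 higher (0.967%) and 339 lower (2.82%), and at least 4-fold differences 1 higher and 24 lower.

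How the libraries were scaled moved this balance. The median log2 fold change of all tested genes was 0.12, and median-ratio scaling shifted it by -0.15, scaling to the ERCC rows by 0.17 and a correction for transcript length by -0.12. The split was 3852 higher and 4590 lower with median-ratio scaling, 4118 and 995 with spike-in scaling, and 4300 and 4280 with length correction. The excess of large decreases was the same in sense with median-ratio scaling (53 higher and 484 lower at 2-fold) and length correction (57 and 467), but not with spike-in scaling (315 and 235). At 4-fold, decreases outnumbered increases in all 3, by 36 to 1, 34 to 1 and 16 to 2. For most gene lists below, the median is therefore followed by how far it lay from the median of all genes, as the range over the values as deposited, these 3 scalings and TPM without the ERCC rows. Counts of higher and lower members under another scaling follow for lists where they moved. For the values as deposited, member counts against DMSO stand beside 44.4% higher and 24.5% lower of all tested genes.

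**Figure D1:**
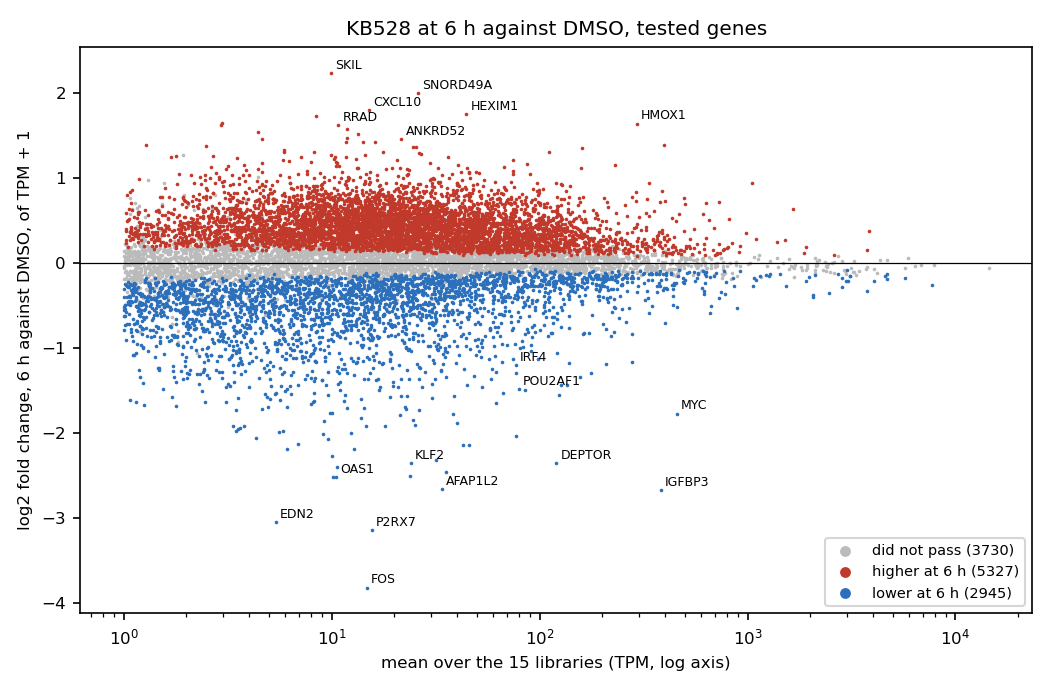
Log2 fold change at 6 h against DMSO (vertical axis, of TPM + 1) against the mean over the 15 libraries in TPM (horizontal log axis), with 1 point per tested gene and colours for the limma call. Increases are many and mostly small, while the lower side reaches to FOS at -3.82, and labels are drawn for named genes where they do not collide.

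IRF4 was among the genes that fell. It was at 90.5, 81.7 and 103 TPM in the DMSO libraries and 37.8, 37.3 and 42.5 TPM at 6 h. The 6 h libraries lay together well below all DMSO libraries, a 2.34-fold lower mean (91.6 ± 10.5 to 39.2 ± 2.9 TPM, here and below mean ± SD, n = 3; log2 fold change -1.20, SE 0.075, adjusted p = 3.08e-09). At 3 h IRF4 was still at 85.8 ± 6.9 TPM, so that the 6 h level was lower than the 3 h level as well (difference -1.11, adjusted p = 1.69e-08). By 24 h it stood at 62.2 ± 1.88 TPM, above 6 h by 0.65.

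The promoter of IRF4 is shown because IRF4 is the gene in the series title and its level at 6 h was below that at every other time. The window holds 250 bases before and 50 after the transcription start in RefSeq GRCh38.p14, chr6:391502-391801 on the plus strand, read 5′ to 3′. Capitals mark a TATA box match (TATAAA, here 32 to 27 bases before the start) and 4 SP1 matches (GGGCGG, here as its reverse complement), 2 of which overlap by 1 base.

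IRF4: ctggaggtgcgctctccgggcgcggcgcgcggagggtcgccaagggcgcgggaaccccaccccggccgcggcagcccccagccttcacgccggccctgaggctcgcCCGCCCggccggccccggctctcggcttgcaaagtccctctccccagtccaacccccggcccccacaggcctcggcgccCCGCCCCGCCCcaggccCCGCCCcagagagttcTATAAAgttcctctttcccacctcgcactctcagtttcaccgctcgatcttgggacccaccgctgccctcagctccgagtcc

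Other regulators and surface markers of the plasma cell state moved to different extents. MYC was at 799, 741 and 883 TPM in the DMSO libraries and 221, 235 and 249.9 TPM at 6 h. No library at 6 h came near the DMSO range, and the mean was 3.44-fold lower (log2 fold change -1.77, SE 0.059, adjusted p = 3.7e-12). POU2AF1, a B cell coactivator gene, was at 108, 97.5 and 126 TPM in the DMSO libraries and 35.9, 38.5 and 41.4 TPM at 6 h. SDC1, which encodes the plasma cell surface proteoglycan CD138, was at 249, 224 and 257 TPM in the DMSO libraries and 93.9, 97.7 and 103 TPM at 6 h. MAF, the transcription factor gene overexpressed in t(14;16) myeloma, was at 403, 364 and 442 TPM in the DMSO libraries and 169.6, 174 and 192 TPM at 6 h. For each of these the groups did not overlap, with log2 fold changes of -1.49 for POU2AF1, -1.30 for SDC1 and -1.17 for MAF. Against 3 h, MYC was lower still (difference -0.18, adjusted p = 0.0161), as were POU2AF1 (-0.60) and SDC1 (-0.60), while MAF differed from 3 h by -0.050 (adjusted p = 0.659). TNFRSF17, which encodes the BCMA receptor targeted in myeloma therapy, fell from 123 ± 7.69 to 73.9 ± 0.564 TPM after standing at 138 ± 14.4 TPM at 3 h. Its order differed from that of IRF4 at the late time, with 50 ± 1.5 TPM at 24 h.

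MEF2C, a transcription factor gene, fell by 0.40 and IKZF3, which encodes Aiolos, fell by 0.36, though neither passed with spike-in scaling (-0.40 became -0.21 and -0.36 became -0.19). Of the genes listed for the plasma cell state, the remaining 4 did not pass. XBP1, a transcription factor of secretion, was at 563, 527 and 546 TPM in the DMSO libraries and 529, 533 and 551 TPM at 6 h. These groups overlapped. CCND2, which encodes cyclin D2, differed by 0.035, IKZF1, which encodes Ikaros, by -0.12 and PRDM1, which encodes BLIMP-1, by 0.082. IKZF1, XBP1 and CCND2 were called lower with median-ratio scaling (-0.28, -0.18 and -0.13) and with length correction (-0.31, -0.074 and -0.15), IKZF1 also without DMSO replicate 2 (-0.22), and PRDM1 was called higher without DMSO replicate 3 (0.22). PRDM1 and IKZF1 had both been lower at 3 h, at 14.4 ± 1.6 TPM and 13.2 ± 1.35 TPM, and their 6 h levels were above the 3 h levels by 0.92 and 0.96.

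The genes of the 2 acetyltransferases themselves rose. EP300 was at 21.5, 17.4 and 27.3 TPM in the DMSO libraries and 44.8, 46.8 and 53.8 TPM at 6 h, and CREBBP at 16.1, 13.5 and 20.2 TPM in the DMSO libraries and 39.8, 40.2 and 45.3 TPM at 6 h. Every 6 h library lay above every DMSO library, with log2 fold changes of 1.12 and 1.30 (adjusted p = 4.86e-06 and 6.5e-07), and both were highest at 6 h among the times sampled. HEXIM1, which encodes an inhibitor of P-TEFb, was at 16.9, 15.9 and 18 TPM in the DMSO libraries and 58.7, 58.2 and 61.2 TPM at 6 h. Its mean was 3.51-fold higher (log2 fold change 1.75, SE 0.10, adjusted p = 1.29e-09), below its 3 h level of 83.1 ± 6.54 TPM and above that at 24 h, 17 ± 1.04 TPM.

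**Figure D2:**
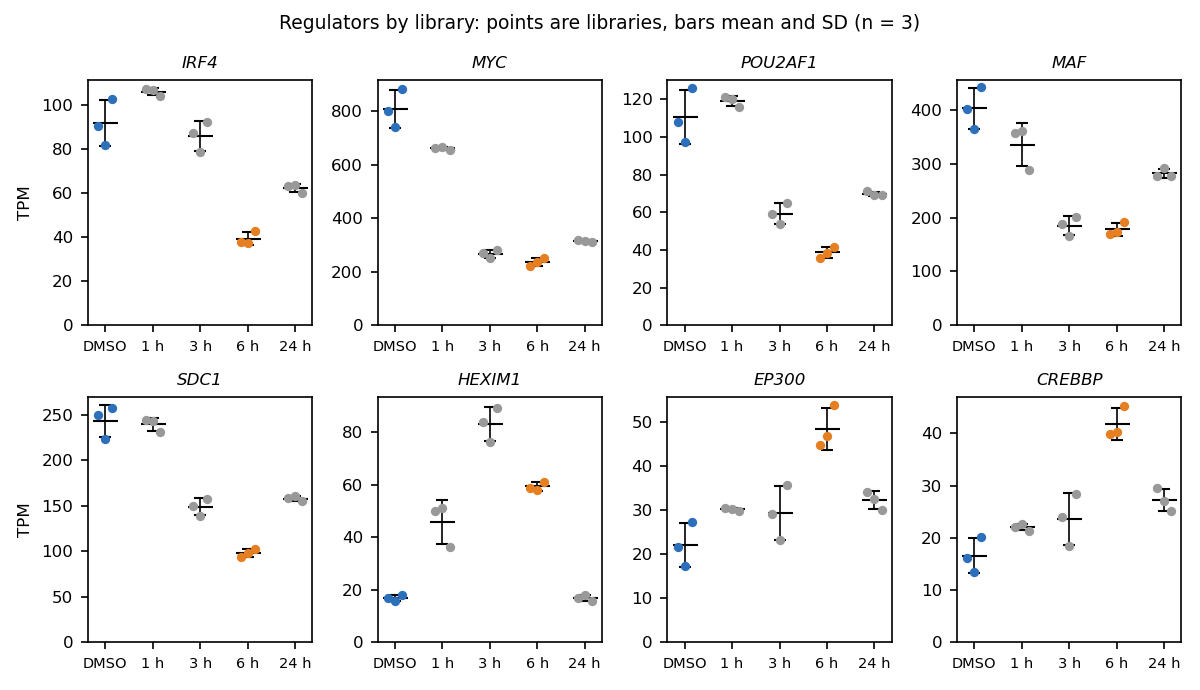
Levels in TPM (vertical axis, from 0) of 8 regulators and markers in every library at DMSO, 1, 3, 6 and 24 h. Points are libraries and bars the mean and SD of 3. IRF4 and SDC1 are lowest at 6 h, EP300 and CREBBP highest at 6 h, and HEXIM1 is back near its DMSO level at 24 h.

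The 12 largest decreases among genes of at least 5 TPM held genes of signalling and secretion and the interferon-induced OAS1. These 12, and the largest increases below, were drawn from genes whose DMSO and 6 h libraries did not overlap. Their separation was thus set by the choice and adds no support. FOS, which encodes an AP-1 subunit, was at 38.6, 35 and 55.8 TPM in the DMSO libraries and 2.32, 1.72 and 2.16 TPM at 6 h. The DMSO libraries themselves spanned a wide range, and all 6 h libraries were far below it, a 20.9-fold lower mean (log2 fold change -3.82, SE 0.13, adjusted p = 4.02e-12). P2RX7, an ATP-gated ion channel gene, was at 29.5, 25.5 and 34.3 TPM in the DMSO libraries and 2.73, 2.13 and 2.55 TPM at 6 h, a 12.1-fold lower mean. EDN2, which encodes the secreted peptide endothelin 2, was at 12.9, 12.4 and 12.9 TPM in the DMSO libraries and 0.699, 0.603 and 0.659 TPM at 6 h. At 6 h EDN2 was thus under 1 TPM in all 3 libraries. IGFBP3, an abundant gene of an insulin-like growth factor binding protein, was at 696, 649 and 686 TPM in the DMSO libraries and 100.1, 105 and 109.6 TPM at 6 h, and DEPTOR, which encodes an inhibitor of mTOR, at 183, 169 and 193 TPM in the DMSO libraries and 33.5, 34.6 and 35.8 TPM at 6 h. In both genes the libraries of each group lay close together (log2 fold changes -2.68 and -2.36). AFAP1L2 (an actin-associated adaptor, -2.67), TFAP2C (the transcription factor AP-2 gamma, -2.53), OAS1 (an interferon-induced antiviral enzyme, -2.52), SSTR3 (a somatostatin receptor, -2.51), LBH (a transcriptional regulator, -2.47), SH2D3C (an SH2 adaptor, -2.41) and KLF2 (a Kruppel-like factor, -2.36) completed the set. All 12 kept their call under every alternative tried. SSTR3 and SH2D3C were slightly above their 3 h levels at 6 h, by 0.20 and 0.25, while AFAP1L2 and DEPTOR were further below theirs (differences -1.83 and -1.75).

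The 12 largest increases were smaller in size. SKIL, which encodes the SMAD corepressor SnoN, was at 3.8, 3.06 and 3.74 TPM in the DMSO libraries and 20.6, 19.4 and 20.9 TPM at 6 h. It was the single gene of at least 4-fold increase on the log2 scale used, a 5.75-fold higher mean (log2 fold change 2.24, SE 0.075, adjusted p = 3.7e-12). HMOX1, which encodes the heme-degrading enzyme heme oxygenase 1, was at 147, 145 and 162 TPM in the DMSO libraries and 448, 475 and 496 TPM at 6 h. HMOX1 was also among the 6 largest increases in TPM, and its 3 h level was still 147 ± 4.43 TPM, within the DMSO range. CXCL10, a chemokine gene, was at 4.97, 4.84 and 3.37 TPM in the DMSO libraries and 18, 16.9 and 17.7 TPM at 6 h, a 3.99-fold higher mean. RRAD, a small GTPase gene, rose from 0.335 ± 0.099 to 3.11 ± 0.298 TPM, far below its 3 h level of 24.7 ± 0.507 TPM, so that most of its early rise was gone by 6 h. FAM222A (1.73), the long non-coding MIR663AHG (1.57), ANKRD52 (a phosphatase 6 subunit, 1.46) and LANCL2 (1.43) followed, beside HEXIM1. SNORD49A (2.0), SNORD93 (1.47) and HIST1H4C (1.51) are uncertain, because reads of small RNAs and of a multi-copy histone family are not measured well in such libraries.

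The SKIL promoter is printed because SKIL had the largest increase. It lies at chr3:170357465-170357764 on the plus strand (RefSeq GRCh38.p14). Capitals mark a CRE match (the palindrome TGACGTCA, 54 to 47 bases before the start) and 3 SP1 matches on either strand. Of 35116 promoters in the table, 1.85% held the CRE letters, beside 3.47% of 8707 tested genes with a promoter. Genes whose promoters are printed were chosen after their values were seen.

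SKIL: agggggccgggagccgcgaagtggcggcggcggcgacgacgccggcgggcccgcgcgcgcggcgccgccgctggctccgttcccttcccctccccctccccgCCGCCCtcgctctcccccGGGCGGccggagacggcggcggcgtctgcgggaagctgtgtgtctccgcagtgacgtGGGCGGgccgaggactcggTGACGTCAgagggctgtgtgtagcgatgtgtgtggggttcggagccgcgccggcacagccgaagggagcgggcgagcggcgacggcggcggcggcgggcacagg

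Ranked by TPM instead of fold, the 6 largest increases were HSPA8 (a constitutive HSP70 chaperone, 1566 ± 67.7 to 2425 ± 57.9 TPM), TUBB4B (a beta tubulin, 761 ± 21.8 to 1454 ± 65.9 TPM), SQSTM1 (the autophagy receptor p62, 243 ± 7.5 to 638 ± 29.6 TPM), HMGN2 (a nucleosome-binding protein, 553 ± 18.9 to 906 ± 22.9 TPM), HMOX1 and TRIM28 (a corepressor, 513 ± 49.9 to 832 ± 55.2 TPM). All 6 kept their call under every scaling. The 6 largest decreases in TPM were FTL (ferritin light chain, 8968 ± 275 to 7507 ± 266 TPM), JCHAIN (the antibody joining chain, 4288 ± 343 to 3402 ± 33 TPM), MZB1 (an ER protein of antibody assembly, 2618 ± 87.7 to 1976 ± 69.8 TPM), TMSB4X (an actin-binding thymosin, 2691 ± 197 to 2096 ± 43.3 TPM), RPS28 and RPS27 (ribosomal proteins, -0.21 and -0.19). None of these 6 passed with spike-in scaling, where the log2 fold changes of MZB1 and JCHAIN were -0.22 and -0.14. The call of RPS27 was also lost without DMSO replicate 1 (-0.14), DMSO replicate 2 (-0.15), replicate 1 at 6 h (-0.17) or replicate 3 at 6 h (-0.19). TUBB4B, HMGN2, FTL, TMSB4X, RPS27 and RPS28 have near-identical copies elsewhere in the genome, and their values are uncertain to that extent.

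Plasma cell transcription factors were mostly lower at 6 h. Of 25 listed genes 21 passed the filter, 1 was higher and 13 were lower, with a median of -0.40 beside 0.12 for all tested genes. The median lay 0.51 to 0.57 log2 units below that of all genes, and with spike-in scaling 1 was higher and 9 were lower. Besides KLF2, POU2AF1 and IRF4, IRF8, a transcription factor gene of B cells, fell from 27.6 ± 2.16 to 13.2 ± 0.235 TPM. Of 9 tested genes of the t(14;16) MAF program 0 were higher and 8 lower (median -0.43, 0.53 to 0.58 below all genes), and with spike-in scaling 4 were lower. ITGB7, which encodes integrin beta 7 and is the most abundant of them, fell from 2538 ± 120.0 to 1954 ± 101 TPM (not passed with spike-in scaling), TNFAIP8, an apoptosis regulator gene, fell by 0.79, and NUAK1, a kinase gene, fell by 0.74. CCND2 was the member of this program that did not pass.

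B cell identity genes had 17 of 28 members tested, of which 4 were higher and 10 lower (median -0.41, 0.53 to 0.56 below all genes). Spike-in scaling gave 3 higher and 6 lower, and median-ratio scaling 2 and 12. CD72, an inhibitory B cell receptor gene, was at 7.54, 7.08 and 7.48 TPM in the DMSO libraries and 1.18, 1.24 and 1.09 TPM at 6 h. At 6 h all 3 libraries were near 1 TPM. CD86, a costimulatory ligand gene, fell by 1.25, BLNK, the adaptor of B cell receptor signalling, fell by 0.84 and BTK, the kinase of that pathway, fell by 0.66. CD74, the MHC class II invariant chain and the most abundant of the list, had 165 ± 8.63 TPM under DMSO against 159 ± 11.2 TPM at 6 h and did not pass (adjusted p = 0.42), but was called lower with median-ratio scaling (-0.22). Of 18 tested surface antigens of myeloma 2 were higher and 14 lower (median -0.41, 0.52 to 0.58 below all genes), and with spike-in scaling 2 and 8. IL6R, the receptor of the myeloma growth factor IL-6, fell from 20.6 ± 1.95 to 7.33 ± 0.767 TPM, and the costimulatory receptor gene CD28 fell from 87.8 ± 7.82 to 44.8 ± 1.59 TPM. CD38, the antibody target of plasma cells, fell by 0.42 (not passed with spike-in scaling) and SLAMF7, an antibody target as well, fell by 0.71 from a level of 1.66 ± 0.147 TPM. Of the 12 plasma cell markers 0 were higher and 10 lower (6 with spike-in scaling), with XBP1 and PRDM1 not passing. DERL3, a gene of ER-associated degradation, fell by 0.86, and FKBP11, an ER prolyl isomerase gene, fell by 0.18, which turned to 0.0085 with spike-in scaling. Of 18 listed immunoglobulin and joining chain symbols 3 were tested, of which 2 were lower (0 with spike-in scaling), and 14 are not analysed here.

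**Figure D3:**
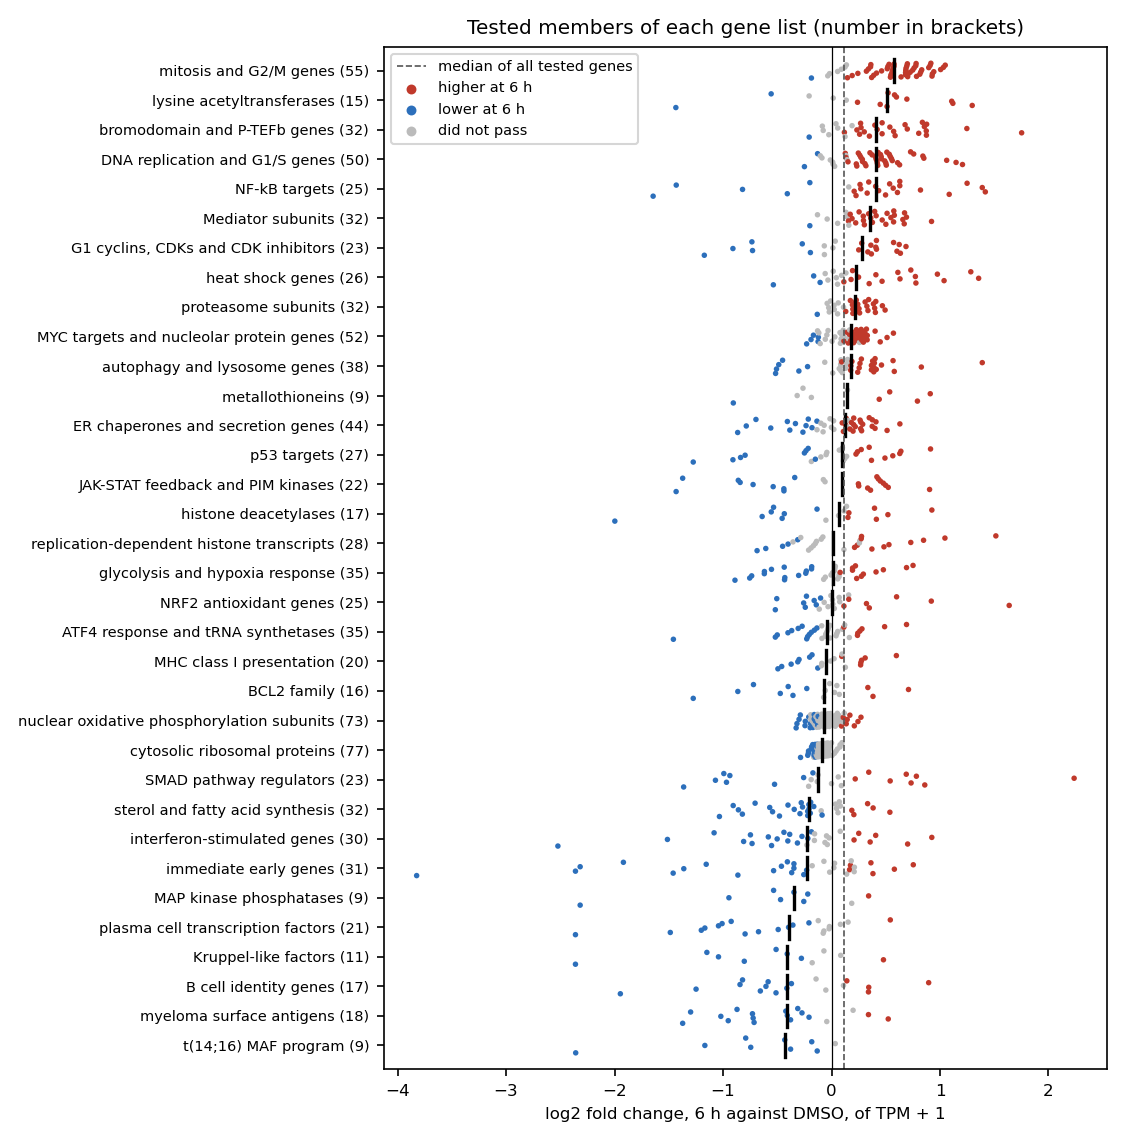
Log2 fold change at 6 h against DMSO (horizontal axis) of the tested members of 34 gene lists, 1 point per gene, coloured by the limma call. Thick bars are list medians and the dashed line is the median of all tested genes, 0.12. Mitosis genes have the highest median (0.58) and genes of the MAF program the lowest (-0.43).

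Cell cycle genes were mostly higher. Of 55 genes of mitosis and G2/M, all tested, 48 were higher and 1 lower (median 0.58, 0.45 to 0.50 above that of all genes). KIF2C, a kinesin that depolymerizes microtubules, was at 102, 95.7 and 99.4 TPM in the DMSO libraries and 184, 185 and 199 TPM at 6 h. PLK1, a mitotic kinase gene and the most abundant of the list, was at 238, 226 and 269 TPM in the DMSO libraries and 405, 432 and 469 TPM at 6 h. In both, the groups were separate, at 1.91-fold and 1.78-fold higher means. CDCA2, a mitotic phosphatase regulator, rose by 1.03, KIF20A, a kinesin of cytokinesis, by 0.93 and AURKA, which encodes Aurora A kinase, by 0.82. AURKA, KIF20A and PLK1 had been lower than DMSO at 3 h (-0.23, -0.29 and -0.31). Against 3 h, 54 of the 55 genes were higher and 0 lower, beside 42.3% and 13.7% of all genes, and the median difference was 0.77.

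Of 50 genes of DNA replication and G1/S, 40 were higher and 2 lower (median 0.41, 0.24 to 0.31 above all genes), and with median-ratio scaling 35 and 8. RRM2, the regulatory subunit of ribonucleotide reductase, was at 140.5, 128 and 156 TPM in the DMSO libraries and 304, 312 and 326 TPM at 6 h. Every 6 h library lay above every DMSO library, and RRM2 differed little from 3 h (0.088, adjusted p = 0.178). CLSPN, which encodes the checkpoint adaptor claspin, rose by 1.21, the origin recognition genes ORC1 and ORC6 by 0.85 and 0.84, and PCNA, the sliding clamp, by 0.50. Among 23 genes of G1 control 13 were higher and 6 lower (median 0.28, 0.15 to 0.17 above all genes), and after length correction 12 and 10. E2F1, a transcription factor of S phase entry, rose by 0.60 and CDC25A, a phosphatase that activates cyclin-dependent kinases, by 0.69. CCND1, which encodes cyclin D1, fell from 21.9 ± 2.25 to 9.13 ± 0.509 TPM. CDKN1A, the gene of the cyclin-dependent kinase inhibitor p21, was at 17, 17 and 21.3 TPM in the DMSO libraries and 8.93, 9.31 and 9.67 TPM at 6 h. The 6 h libraries lay below DMSO (-0.91), whereas at 3 h CDKN1A was above it at 55.3 ± 1.37 TPM. CDK4, the kinase partner of D cyclins, did not pass (-0.066, adjusted p = 0.0929), and was called lower with median-ratio scaling (-0.23), length correction (-0.14) and after removal of the ERCC rows from the total (-0.091).

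Most heat shock genes were higher at 6 h than at 3 h, and most were lower at 24 h than at 6 h. Of 26 tested members 16 were higher and 3 lower than in DMSO (median 0.22, 0.088 to 0.12 above all genes), with 12 and 7 by median-ratio scaling, 13 and 5 after length correction and 12 and 0 by spike-in scaling. Against 3 h 22 were higher and 1 lower (median difference 0.40), beside 42.3% and 13.7% of all genes. From 6 h to 24 h, 3 were higher and 17 lower, beside 41.0% and 26.0% of all genes. DNAJB1, an inducible HSP40 cochaperone, was at 119, 112 and 123 TPM in the DMSO libraries and 289, 302 and 319 TPM at 6 h. HSPA1B, an inducible HSP70 gene whose reads can be shared with its near-identical neighbour HSPA1A, was at 21.7, 19.5 and 22.2 TPM in the DMSO libraries and 51.3, 52.3 and 55.1 TPM at 6 h. Neither was that high at 3 h (109.9 ± 2.79 TPM and 17 ± 0.742 TPM) and at 24 h (133 ± 3.43 TPM and 23 ± 0.154 TPM), so that both were highest at 6 h. HSPA8 was at 1644, 1528 and 1526 TPM in the DMSO libraries and 2376, 2410.3 and 2489 TPM at 6 h. DNAJA1, another HSP40 gene, was at 248, 223 and 221 TPM in the DMSO libraries and 395, 393 and 399 TPM at 6 h. The groups of HSPA8 and DNAJA1 did not overlap (0.63 and 0.78). HSP90AB1, the most abundant member, changed by 0.11 (adjusted p = 0.0162), which turned to -0.050 with median-ratio scaling and to -0.0015 with length correction. Its call was also lost with spike-in scaling and without DMSO replicate 1 (0.10), DMSO replicate 2 (0.085) or replicate 3 at 6 h (0.085).

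A heat shock element, searched on both strands as GAA, any 2 bases, TTC, any 2 bases and GAA, was found in 0.49% of all 35116 promoters, in 0.356% of 8707 tested genes with a promoter and in 4 of 23 heat shock genes (17.4%). Those 4 were DNAJB6, CHORDC1, HSPA8 and DNAJA1, each higher at 6 h. Most heat shock genes without a match were higher as well. Of all 26 tested members 16 were higher, beside 44.4% of all tested genes. DNAJB1, HSPA1A and HSPA1B, with the largest increases, had no match to these letters in the window. The promoters of HSPA8 (chr11:123062087-123062386 on the minus strand) and DNAJA1 (chr9:33025023-33025322 on the plus strand), both RefSeq GRCh38.p14, are shown for the position of the element. Capitals mark the heat shock elements (in HSPA8 from 230 and from 55 bases before the start, in DNAJA1 at bases 3 to 15 after it), with CCAAT, ETS (CCGGAAG) and SP1 matches. In DNAJA1 an SP1 match overlaps the element by 1 base.

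HSPA8: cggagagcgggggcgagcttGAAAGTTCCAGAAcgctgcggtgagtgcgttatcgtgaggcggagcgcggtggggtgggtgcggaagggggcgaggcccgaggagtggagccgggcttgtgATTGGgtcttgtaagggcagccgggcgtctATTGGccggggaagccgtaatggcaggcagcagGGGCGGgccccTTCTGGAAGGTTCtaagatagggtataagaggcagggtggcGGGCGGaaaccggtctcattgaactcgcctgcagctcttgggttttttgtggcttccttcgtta
DNAJA1: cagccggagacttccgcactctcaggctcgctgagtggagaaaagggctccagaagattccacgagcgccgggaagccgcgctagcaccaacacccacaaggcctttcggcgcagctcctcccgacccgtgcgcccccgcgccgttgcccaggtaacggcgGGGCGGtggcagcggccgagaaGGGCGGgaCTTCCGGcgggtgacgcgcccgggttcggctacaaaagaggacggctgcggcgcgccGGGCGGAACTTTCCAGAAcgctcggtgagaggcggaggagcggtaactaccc

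Most proteasome genes were higher by small amounts. Of 32 subunits 22 were higher and 1 lower (median 0.22, 0.088 to 0.18 above all genes). PSMD11 and PSMD12, of the regulatory lid, rose by 0.49 and 0.40, ADRM1, a ubiquitin receptor, by 0.39 and PSMC3, an ATPase of the base, by 0.34. PSMB4, the most abundant, rose by 0.20, but passed neither with median-ratio nor with spike-in scaling. With median-ratio scaling 11 subunits were higher and 5 lower, and with spike-in scaling 10 and 0. Genes of autophagy and lysosomes had 21 higher and 6 lower of 38 tested, and their median of 0.18 was close to that of all genes (0.049 to 0.070 above it). After length correction 16 were higher and 10 lower, and with spike-in scaling 14 and 0. SQSTM1 was at 247, 234 and 247 TPM in the DMSO libraries and 607, 641 and 666 TPM at 6 h. It was 2.63-fold higher and returned to 283 ± 4.62 TPM by 24 h. MAP1LC3B, an autophagosome protein gene, rose by 0.57, the lysosomal sialidase gene NEU1 by 0.58 and the lysosomal galactosidase gene GLA by 0.39. PSAP, the saposin precursor and most abundant of these, did not pass (-0.062, adjusted p = 0.195), though it was called lower with median-ratio scaling (-0.23), length correction (-0.19) and without DMSO replicate 2 (-0.11).

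Of 25 tested NRF2 antioxidant genes 7 were higher and 8 lower, and the sign of their median followed the scaling, from 0.0086 to -0.15 with median-ratio scaling (0.062 to 0.12 below all genes). The lower count was 15 with median-ratio scaling, 0 with spike-in scaling and 5 without DMSO replicate 1 or replicate 1 at 6 h. HMOX1 was their largest change. GCLM, a subunit of the glutathione-making ligase, rose from 13.2 ± 1.74 to 25.7 ± 0.989 TPM and KEAP1, the inhibitor of NRF2, from 119.7 ± 7.37 to 182 ± 7.36 TPM. Among 44 genes of ER chaperones and secretion 22 were higher and 12 lower (median 0.12, the same as all genes, -0.044 with median-ratio scaling and -0.0043 with length correction). These shares, 50% and 27.3%, were near the 44.4% and 24.5% of all genes. Median-ratio scaling gave 10 higher and 18 lower, length correction 13 and 16, and spike-in scaling 9 and 3. HSPA5, the ER chaperone BiP, rose from 710.4 ± 42.7 to 1013 ± 29.6 TPM and DNAJB11, its cochaperone, by 0.40, while HERPUD1, of ER-associated degradation, fell from 275 ± 15.1 to 169 ± 5.57 TPM. PPIB, an ER prolyl isomerase, had 2989.5 ± 172 TPM under DMSO against 3032 ± 35.5 TPM at 6 h and did not pass (adjusted p = 0.692). At 24 h, 37 of the 44 were below their 6 h level and 2 above it, beside 26.0% and 41.0% of all genes.

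Of 35 tested genes of the ATF4 response and tRNA synthetases 7 were higher and 13 lower (median -0.042, which turned to 0.14 with spike-in scaling, 0.16 to 0.21 below all genes). Median-ratio scaling gave 4 higher and 24 lower, length correction 5 and 23, and spike-in scaling 3 and 1. ATF4, the transcription factor of amino acid stress, fell from 457 ± 6.53 to 323 ± 8.44 TPM, and CHAC1, a glutathione-degrading enzyme gene it activates, fell from 3.22 ± 0.374 to 0.536 ± 0.12 TPM. CARS, a cysteine tRNA synthetase gene, fell by 0.40. DDIT4, an inhibitor of mTOR signalling, rose by 0.69 after being lower than DMSO at 3 h (-0.41). ATF4 and CARS did not pass with spike-in scaling.

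Of 32 tested genes of sterol and fatty acid synthesis 5 were higher and 21 lower (median -0.21, 0.31 to 0.35 below that of all genes). With spike-in scaling 3 were higher and 5 lower, with a median of -0.020. MSMO1, a methylsterol oxidase, was at 79.1, 71.9 and 75.2 TPM in the DMSO libraries and 40.3, 39.2 and 39.7 TPM at 6 h. FDFT1, squalene synthase, was at 154, 146 and 145 TPM in the DMSO libraries and 78.9, 79.9 and 85.4 TPM at 6 h. Both groups were separate. INSIG1, the sterol-sensing regulator of this pathway, fell by 0.82 after standing above DMSO at 3 h (275 ± 8.49 TPM), and the elongase gene ELOVL6 fell by 0.70. EBP, a sterol isomerase and the most abundant, did not pass (0.047, adjusted p = 0.227), with -0.12 by median-ratio scaling. Glycolysis and hypoxia genes were mixed, 11 higher and 14 lower of 35, with a median near 0 (0.0092) that turned to -0.15 with median-ratio and -0.12 with length correction (0.093 to 0.12 below all genes). Median-ratio scaling gave 5 higher and 23 lower, length correction 6 and 20, and spike-in scaling 5 and 3. The glucose transporter gene SLC2A3 rose by 0.75, PDK1, a kinase that inhibits pyruvate dehydrogenase, fell by 0.75, and ADM, which encodes adrenomedullin, fell by 0.62 (not passed with spike-in scaling). GAPDH did not pass (0.031, adjusted p = 0.417).

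More interferon-stimulated genes were lower than higher. Of 46 listed genes 30 passed the filter, 6 were higher and 16 lower (median -0.22, 0.33 to 0.36 below that of all genes). With spike-in scaling 4 were higher and 8 lower. Of the 18 members of at least 5 TPM 6 were higher and 8 lower (median -0.053). OAS1 was at 18.7, 19.2 and 19.1 TPM in the DMSO libraries and 2.28, 2.37 and 2.82 TPM at 6 h. IFIT3, which encodes an RNA-binding antiviral protein, was at 3.57, 3.82 and 3.43 TPM in the DMSO libraries and 0.501, 0.677 and 0.669 TPM at 6 h, and its relative IFIT1 at 2.37, 1.92 and 2 TPM in the DMSO libraries and 0.378, 0.513 and 0.489 TPM at 6 h. For each, all 6 h libraries were below all DMSO libraries, though IFIT1 and IFIT3 were low genes to begin with. IRF7, a transcription factor of interferon genes, rose from 10.8 ± 0.592 to 21.3 ± 0.91 TPM, against the direction of most of the list. BST2, which encodes tetherin and is the most abundant, fell by 0.27 (not passed with spike-in scaling). Of 20 tested genes of MHC class I presentation 6 were higher and 8 lower (median -0.049, which turned to 0.13 with spike-in scaling, 0.15 to 0.17 below all genes), and with spike-in scaling 3 and 0. HLA-E and HLA-B, whose reads can be shared among HLA genes, rose by 0.60 and 0.31, and the immunoproteasome genes PSMB8 and PSMB9 were lower (-0.49 and -0.46, neither passed with spike-in scaling). B2M, the class I light chain, did not pass (-0.090, adjusted p = 0.182), and was called lower with median-ratio scaling (-0.25), length correction (-0.13) and without DMSO replicate 3 (-0.15).

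An interferon response element, searched on both strands as TTTC, any 2 bases and TTTC, was held by 14 of 24 of these genes with a promoter in the table (58.3%), beside 2.8% of tested genes and 3.57% of all promoters. The promoters of IFIT1 (chr10:89392373-89392672 on the plus strand) and IFIT3 (chr10:89327747-89328046 on the plus strand) are shown because each has 2 such matches. Capitals mark them, with CCAAT matches in IFIT1 and a TATA box match on the reverse strand in IFIT3. A match describes these letters only.

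IFIT1: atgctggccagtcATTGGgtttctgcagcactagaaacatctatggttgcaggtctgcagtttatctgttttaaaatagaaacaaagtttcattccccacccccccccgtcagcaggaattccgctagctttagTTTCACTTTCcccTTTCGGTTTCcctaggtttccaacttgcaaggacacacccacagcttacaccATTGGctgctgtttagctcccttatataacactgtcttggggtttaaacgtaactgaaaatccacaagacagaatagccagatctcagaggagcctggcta
IFIT3: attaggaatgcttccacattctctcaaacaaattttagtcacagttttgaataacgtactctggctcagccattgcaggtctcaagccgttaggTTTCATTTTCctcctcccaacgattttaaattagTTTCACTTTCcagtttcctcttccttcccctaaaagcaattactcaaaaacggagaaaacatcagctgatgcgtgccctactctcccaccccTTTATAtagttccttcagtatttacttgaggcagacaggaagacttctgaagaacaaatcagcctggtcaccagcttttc

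Genes of the acetylation and elongation machinery were mostly higher, EP300 and CREBBP among them. Of 15 tested genes in the list of lysine acetyltransferases and their partners 10 were higher and 2 lower (median 0.51), and with median-ratio scaling 9 and 4. NCOA1, a nuclear receptor coactivator, rose from 1.83 ± 0.142 to 5.09 ± 0.157 TPM and KAT5, the acetyltransferase TIP60, from 49.2 ± 1.4 to 75.1 ± 3.16 TPM. KAT2A, the acetyltransferase GCN5 and the most abundant, did not pass (0.14, adjusted p = 0.0815) but was called higher without DMSO replicate 3 (0.21) and without replicate 1 at 6 h (0.17). CITED2, which binds p300 and CBP and has no acetyltransferase activity of its own, was at 218, 202 and 242 TPM in the DMSO libraries and 79.6, 79.8 and 82.9 TPM at 6 h. It was thus 2.73-fold lower at 6 h, though above its 3 h level of 37.7 ± 1.91 TPM. Of 32 tested bromodomain and P-TEFb genes 24 were higher and 1 lower (median 0.41), with 19 and 4 by median-ratio scaling and 21 and 6 after length correction. BRPF3 and BRD8, bromodomain subunits of acetyltransferase complexes, rose by 1.25 and 0.88. HEXIM1 and MEPCE (0.87) in this list belong to the 7SK complex that holds P-TEFb inactive. TRIM28 rose by 0.70. Of 32 tested Mediator genes 25 were higher and 1 lower (median 0.35), with 18 and 3 by median-ratio scaling and 20 and 4 after length correction. MED13, of the kinase module, rose by 0.92, MED27 by 0.69, MED21 by 0.57 and MED6 by 0.55. MED16, the most abundant, passed at 0.17 (adjusted p = 0.034), but not with median-ratio scaling or length correction (0.010 and 0.0097), with spike-in scaling, or without DMSO replicate 1 (0.16), DMSO replicate 2 (0.12), replicate 2 at 6 h (0.18) or replicate 3 at 6 h (0.12). The medians of these 3 lists lay between 0.23 and 0.40 above that of all genes.

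Of 17 histone deacetylase genes 6 were higher and 7 lower, with a median of 0.065 that turned to -0.094 with median-ratio scaling (0.034 to 0.064 below all genes), and with spike-in scaling 4 and 2. HDAC9 was at 8.58, 6.88 and 8.32 TPM in the DMSO libraries and 1.19, 1.22 and 1.28 TPM at 6 h. Its 6.45-fold lower mean at 6 h lay below its levels at 3 h (4.06 ± 0.114 TPM) and 24 h (6.36 ± 0.0859 TPM). HDAC5 fell by 0.64, HDAC3 rose by 0.40 and the NAD-dependent deacetylase gene SIRT1 by 0.92. HDAC1, the most abundant, was called higher (0.16), but turned to -0.0028 with median-ratio scaling and did not pass with spike-in scaling.

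Signalling genes split by pathway. Of 25 tested NF-kB genes 19 were higher and 5 lower (median 0.41, 0.24 to 0.29 above all genes), and with spike-in scaling 16 and 3. RELB, a subunit of NF-kB, was at 6.67, 5.69 and 5.75 TPM in the DMSO libraries and 16.5, 18.1 and 18.8 TPM at 6 h. NFKBIA, which encodes its inhibitor, was at 23.8, 22.7 and 25.7 TPM in the DMSO libraries and 48.4, 53.6 and 54.4 TPM at 6 h. Both were separate from DMSO and below their 3 h levels (24.4 ± 2.32 TPM and 76.7 ± 2.34 TPM), and the list thus holds an inhibitor among its largest rises. PLEK, which encodes pleckstrin, fell by 1.43. Of 31 tested immediate early genes 6 were higher and 16 lower (median -0.23, 0.33 to 0.36 below all genes), and with spike-in scaling 4 and 8. DUSP1, a phosphatase of MAP kinases, was at 73.7, 70 and 111 TPM in the DMSO libraries and 15.5, 15.4 and 16.8 TPM at 6 h, and TRIB1, a pseudokinase gene, at 27.6, 25.4 and 39.5 TPM in the DMSO libraries and 6.85, 7.25 and 7.75 TPM at 6 h. The DMSO libraries of both were spread widely, as for FOS, with replicate 3 highest, yet all exceeded the 6 h libraries. JUND, the most abundant, fell by 0.23 (not passed with spike-in scaling) after 331 ± 9.64 TPM at 3 h.

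Of 9 tested MAP kinase phosphatase genes 1 was higher and 7 lower (median -0.35, 0.46 to 0.53 below all genes), and with spike-in scaling 1 and 2. DUSP6 fell by 0.95, while DUSP2, DUSP8 and DUSP5 (-0.53, -0.47 and -0.26) were lower but did not pass with spike-in scaling. DUSP5 was at 26.8 ± 1.21 TPM at 3 h and had come back to 121 ± 6.49 TPM at 6 h. Of 11 tested Kruppel-like factor genes 1 was higher and 7 lower (median -0.41, 0.52 to 0.54 below all genes), and with spike-in scaling 1 and 4. KLF15, KLF13 and KLF9 fell from 25.8 ± 1.55 to 11.1 ± 0.613 TPM, from 66.2 ± 8.52 to 31.5 ± 2 TPM and from 4.17 ± 0.771 to 1.94 ± 0.198 TPM.

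Of 27 tested p53 targets 10 were higher and 8 lower, and their median of 0.10 turned to -0.052 with median-ratio scaling and -0.064 with length correction (0.016 to 0.062 below all genes), and with spike-in scaling 7 and 4. TIGAR, a fructose bisphosphatase gene, rose by 0.91, while BBC3, which encodes the BH3-only protein PUMA, fell from 6.95 ± 0.953 to 2.29 ± 0.393 TPM and GADD45A, a stress sensor gene, fell by 0.80. BTG2 was at 114 ± 13.4 TPM in DMSO, 28.2 ± 1.03 TPM at 3 h and 125 ± 4.78 TPM at 6 h, where it did not differ from DMSO by the test (adjusted p = 0.0579), and it was called higher without DMSO replicate 3 (0.23) or replicate 1 at 6 h (0.17). Of 16 tested BCL2 family genes 3 were higher and 7 lower (median -0.065, which turned to 0.12 with spike-in scaling, 0.17 to 0.21 below all genes). With spike-in scaling 3 were lower, and with median-ratio scaling or length correction 11. Pro-apoptotic HRK and BMF fell (-0.86 and -0.72), and BCL2L2, which encodes the survival protein BCL-W, rose by 0.71. MCL1, the survival protein gene on which myeloma cells often rely, was at 101, 86.6 and 106 TPM in the DMSO libraries and 94.1, 95.8 and 99.1 TPM at 6 h. These groups overlapped and MCL1 did not pass (adjusted p = 0.818), but it was called lower with median-ratio scaling (-0.18) and length correction (-0.20).

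Of 23 tested SMAD pathway genes 8 were higher and 8 lower (median -0.12, which turned to 0.055 with spike-in scaling, 0.24 to 0.29 below all genes), with 7 and 13 by median-ratio scaling, 7 and 12 after length correction and 7 and 5 by spike-in scaling. ID1, a target of BMP signalling, fell from 30.3 ± 1.37 to 11.2 ± 1.16 TPM, and SMAD3, a signal transducer, and SMAD6, an inhibitor, fell (-1.07 and -0.99), beside the rise of SKIL. TGFB1, the ligand, did not pass (0.091, adjusted p = 0.37), and was called higher without DMSO replicate 3 (0.19). Of 22 tested JAK-STAT and PIM kinase genes 11 were higher and 9 lower (median 0.094, which turned to -0.068 with median-ratio scaling and -0.048 with length correction, 0.011 to 0.046 below all genes), and with spike-in scaling 9 and 5. The phosphatase gene PTPN6 fell from 40.6 ± 1.73 to 14.4 ± 0.41 TPM, its relative PTPN1 rose from 30 ± 2.98 to 56.9 ± 2.42 TPM, and PIM2, a survival kinase of myeloma, fell from 371 ± 30.7 to 206 ± 12 TPM.

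Of 52 tested MYC targets and nucleolar genes 30 were higher and 5 lower at 6 h (median 0.18, 0.051 to 0.076 above all genes), while MYC itself was lower. Median-ratio scaling gave 10 higher and 12 lower, length correction 20 and 9, TPM without the ERCC rows 30 and 8, and spike-in scaling 13 and 0. NOP2 and NOP14, of ribosome assembly, rose by 0.57 and 0.45, DKC1, a pseudouridine synthase, by 0.51, and IMPDH2, of guanine nucleotide synthesis, by 0.40. NPM1, the most abundant nucleolar gene of the list, did not pass (-0.043, adjusted p = 0.483), and was called lower with median-ratio scaling (-0.21). At 24 h, 45 of the 52 were below their 6 h level and 1 above it, beside 26.0% and 41.0% of all genes. Of 77 ribosomal protein genes 0 were higher and 18 lower, with a median of -0.086 that turned to 0.10 with spike-in scaling (0.075 to 0.22 below all genes). Their lower share of 23.4% was close to the 24.5% of all genes, of which 44.4% were higher. With median-ratio scaling 67 were lower, without the ERCC rows 35, with spike-in scaling 0, and with length correction 4 were higher and 29 lower. The lower count also varied with single libraries, at 4 without DMSO replicate 1 or DMSO replicate 2, 44 without DMSO replicate 3, 5 without replicate 1 at 6 h and 9 without replicate 3 at 6 h, and at 6 with no filter on low genes. RPL3 was lower (-0.29, not passed with spike-in scaling), RPL4 and RPS26 were lower (-0.16 and -0.16, which turned to 0.034 and 0.033 with spike-in scaling), and the call of RPS26 was lost without DMSO replicate 2 (-0.12) or replicate 1 at 6 h (-0.12). RPLP1, at 14311 ± 301 TPM the most abundant, did not pass (-0.062) but was called lower with median-ratio scaling (-0.23) and without DMSO replicate 3 (-0.13). Ribosomal protein genes have many pseudogene copies, which adds to their uncertainty.

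Of 73 nuclear genes of oxidative phosphorylation 8 were higher and 17 lower (median -0.072, which turned to 0.12 with spike-in scaling). Median-ratio scaling gave 0 higher and 55 lower, TPM without the ERCC rows 4 and 32, and spike-in scaling 0 and 0, with the median 0.069 to 0.21 below all genes. Leaving out 1 library gave 10 lower without DMSO replicate 1 or DMSO replicate 2, 33 without DMSO replicate 3 and 9 without replicate 1 at 6 h. The higher count was 3 to 5 without any single library other than DMSO replicate 1, where it was 9. UQCRFS1, of complex III, rose by 0.27, ATP5G1, of ATP synthase, fell by 0.30 and NDUFA7, of complex I, fell by 0.29. These 3 missed the threshold with spike-in scaling, and UQCRFS1 also with median-ratio scaling and length correction (0.11 in both). COX8A, of complex IV, was lower at the edge of the threshold (-0.13, adjusted p = 0.0493), which turned to 0.062 with spike-in scaling and was lost with length correction and without DMSO replicate 1 (-0.13), DMSO replicate 2 (-0.088), replicate 1 at 6 h (-0.093) or replicate 2 at 6 h (-0.14). Ribosomal and oxidative phosphorylation transcripts are short, with median lengths of 1181 and 1257 bases beside 3157 for all genes. For protein-coding genes, median changes (log2) were -0.031 in the tenth with the shortest transcripts (up to 1417 bases) and 0.20 in the tenth with the longest (from 7408 bases). The part of transcript length in these list results was not tested beyond the correction.

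Of 28 tested replication-dependent histone transcripts 11 were higher and 5 lower (median 0.017, which turned to -0.11 with median-ratio scaling). Median-ratio scaling gave 7 higher and 11 lower and spike-in scaling 9 and 2. The lower count was 2 without DMSO replicate 1 and 3 without replicate 2 or replicate 3 at 6 h, and of 16 members of at least 5 TPM 9 were higher and 0 lower. HIST1H2BK and HIST1H2BJ rose by 0.85 and 1.05 and HIST1H2AC by 0.48, all members of a family whose reads can be shared. Of 9 tested metallothionein genes and their zinc regulators 4 were higher and 1 lower (median 0.15, and -0.015 with median-ratio scaling, which gave 4 and 3). MT1X rose from 100.4 ± 8.55 to 189 ± 8.6 TPM, the zinc exporter gene SLC30A1 from 27.7 ± 4.72 to 48.2 ± 2.05 TPM and MTF1, the metal-sensing transcription factor, by 0.54, while MT1A fell by 0.91. At 24 h, 7 of these 9 were below their 6 h level and 0 above it, beside 26.0% and 41.0% of all genes. By biotype, 5049 of 10678 protein-coding genes were higher and 2545 lower (median 0.13). Among 506 long non-coding RNA genes 79 were higher and 225 lower (median -0.20).

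The 6 h libraries were then set against those at 3 h and 24 h, with no DMSO library in the fold change of either comparison. The spread was still estimated over all 15 libraries. Of the 12002 genes 5074 were higher at 6 h than at 3 h (42.3%) and 1648 lower (13.7%), together 56.0%. From 6 h to 24 h, 4925 were higher (41.0%) and 3122 lower (26.0%), together 67.0%. The split against 3 h depended on scaling, with 3105 higher and 3581 lower by median-ratio scaling, 3223 and 3586 after length correction, 7362 and 232 with spike-in scaling and 4165 and 2229 after removal of the ERCC rows from the total. From 6 h to 24 h it was 1640 and 2037 with spike-in scaling and 4375 and 4594 after length correction. At least 2-fold called differences from DMSO numbered 113 higher and 14 lower at 1 h, 139 and 278 at 3 h and 158 and 159 at 24 h, beside the 116 and 339 of 6 h, and all 4 times share the DMSO libraries.

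A peak at 6 h, above both 3 h and 24 h by the test, was found in 1441 genes and a trough in 819 (1357 and 555 of at least 5 TPM). These counts are for the values as deposited, and peaks and troughs were not counted under another scaling. They depend on the comparison with 3 h, where 5074 genes were higher and 1648 lower at 6 h. Median-ratio scaling gave 3105 and 3581 there. Spike-in scaling gave 7362 and 232, so that fewer genes lay below 3 h than the 819 troughs. The largest peaks were DEDD2, SETD1B, HSPA1B, MIR3176, DNAJB1 and IL10RA. DEDD2, which encodes a death effector domain protein, was at 30.1, 28.4 and 31.5 TPM in the DMSO libraries and 58.7, 64 and 64.9 TPM at 6 h, against 19.4 ± 0.592 TPM at 3 h and 31.8 ± 2.51 TPM at 24 h. IL10RA, an interleukin 10 receptor chain, was at 9.45, 8.47 and 11 TPM in the DMSO libraries and 26, 26.9 and 28.9 TPM at 6 h. SETD1B, a histone H3 lysine 4 methyltransferase gene, rose from 10.2 ± 2.18 to 25.6 ± 2.14 TPM. In each of the 3 all 6 h libraries exceeded the DMSO libraries.

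The largest troughs were P2RX7, OAS1, LBH, HDAC9, MIR3911 and MIR378I. LBH was at 62.1, 56.5 and 62.5 TPM in the DMSO libraries and 9.53, 10.3 and 10.4 TPM at 6 h, below its levels at 3 h (25 ± 0.434 TPM) and 24 h (25.1 ± 1.03 TPM). P2RX7 was at 8.77 ± 0.58 TPM at 3 h and 9.17 ± 0.179 TPM at 24 h, and OAS1 at 6.95 ± 0.201 TPM and 8.2 ± 0.414 TPM. A trough needs a higher level at 24 h than at 6 h, so that this rise is part of the choice. At 24 h the means of the 4 protein-coding troughs were still below those of DMSO. The small RNAs MIR3176, MIR3911 and MIR378I are uncertain in this assay, and the latter 2 did not pass against DMSO (adjusted p = 0.155 and 0.457), although MIR3911 was called lower without replicate 2 at 6 h (-0.85).

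**Figure D4:**
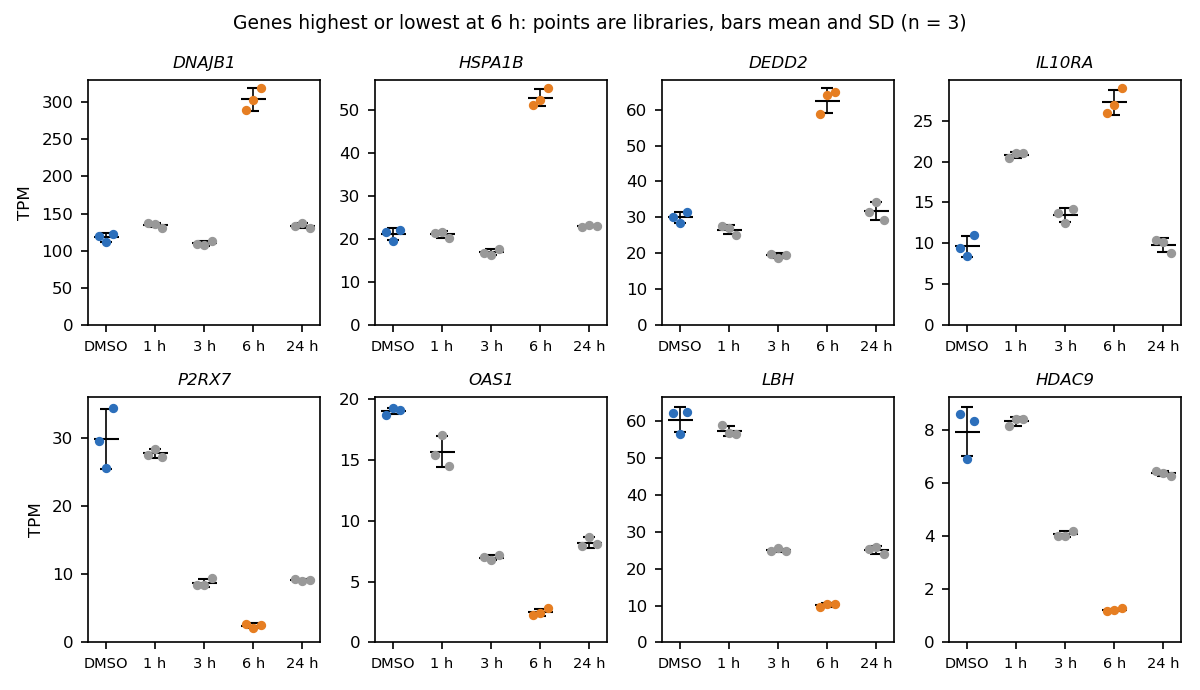
Levels in TPM (vertical axis, from 0) of 4 genes highest at 6 h and 4 genes lowest at 6 h, in every library at DMSO, 1, 3, 6 and 24 h, with points for libraries and bars for the mean and SD of 3. DNAJB1 has 289 to 319 TPM at 6 h and at most 137 TPM in any other library, and HDAC9 is at 1.19 to 1.28 TPM at 6 h.

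Promoter letters were also counted by direction of change, in 8707 of the 12002 tested genes that matched RefSeq GRCh38.p14 by symbol, on both strands. Here and above, gene sets use only the first listed promoter of each symbol. The shares of all 35116 promoters count every promoter of the 27305 symbols, so the 2 baselines are built differently. The ETS letters CCGGAAG stood in 25.5% of promoters of genes higher at 6 h, 12.7% of those lower, 21.3% of those that did not pass and 3.88% of those at least 2-fold lower, beside 21.2% of tested genes and 10.3% of all 35116 promoters. CCAAT stood in 73.9% of 46 mitosis genes, beside 39.5% of genes higher at 6 h, 37.7% of tested genes and 34.6% of all promoters. SP1 letters (GGGCGG) differed less, at 71.7% of higher and 69.3% of lower genes, and E-box letters (CACGTG) stood in 10.2% and 10.7%, beside 71.1% and 10.5% of tested genes and 45.0% and 7.26% of all promoters. TATA box letters were in 12.3% of the genes at least 2-fold higher and 10.7% of those at least 2-fold lower, beside 5.04% of tested genes and 11.5% of all promoters. AP-1 letters (TGANTCA) were in 8.74% of genes at least 2-fold lower, 4.36% of tested genes and 7.71% of all promoters. The kB letters (GGGA, any base and TTTCC) were in 4 of 22 NF-kB genes (18.2%), in 0.517% of tested genes and in 0.558% of all promoters. These shares are descriptions without a test, and the window of 300 bases reaches no distant enhancer.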

How the data were processed

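RNA sequencing of RPMI-8226 cells was analysed from the deposited table of TPM values, 1 column per library and 15 in all. The submitters' processing notes name FastQC, STAR, featureCounts, MultiQC and the genome build hg19, and their versions and the step from counts to TPM are not given in the sources used here. The deposited TPM of each library add up to the same total with the 92 ERCC spike-in rows included, so that a change in the spike-in share moves every gene. The protocols describe a strand-specific mRNA kit. Counts per gene and total depth are not known, and 3 libraries per group limit the precision.

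Groups were taken from the sample labels, 3 libraries each. The 12002 genes that averaged 1 TPM or more were fitted on the log2(TPM + 1) scale by limma 3.58.1, run in R 4.3.3 (15 libraries and 5 groups in 1 fit, variance trend, Benjamini-Hochberg adjustment within each comparison, threshold 0.05), after the scripts were tested on simulated data. All adjusted p-values in the text are from this fit. The same-numbered DMSO and 6 h libraries deviated together from their group means (r = 0.136, 0.152 and 0.148 across genes). For different numbers r was -0.053 to -0.094, which adds no separate evidence, because deviations cancel within a group. On this hint from the data the numbers may pair the libraries, which the labels do not state. The main fit and its adjusted p-values leave such a pairing out. A fit with the replicate number as a block was made beside the main one.

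Named genes were 15 regulators and marker genes and all tested cell type markers. Added to these were the 12 largest increases and decreases among called genes of at least 5 TPM whose groups did not overlap. The 6 largest in TPM and the 6 largest peaks and troughs were named too. Each list gave up to 4 members by adjusted p and its most abundant member. HSPA1A, DNAJB6 and CHORDC1 are named for their promoters, and 1 gene that the rule names is not reported here. The members, lists and rules were chosen with earlier results of these data known. Genes picked by size, non-overlap or adjusted p at 6 h differ by that choice, so that separate groups in them add no support. Alternatives were a pseudocount of 0.1, no filter and a filter of 5 TPM, median-ratio scaling, scaling to the ERCC rows, TPM without the ERCC rows, a length correction, no variance trend, the compared groups alone, the block, and each library left out. Biotypes and promoters came from RefSeq GRCh38.p14 by symbol, and no coordinates were carried between builds. Transcript lengths came from GENCODE by symbol, as the longest protein-coding transcript or else the longest transcript. Figures were drawn with matplotlib 3.10.9.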

Additional observations from a re-analysis of the deposited data

Results flagged for a closer look

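For 33 named genes the change from DMSO passed the test in opposite directions at 6 h and at 3 h or 24 h, and the levels at the 2 times differed by limma's test of that difference itself. Both changes use the same DMSO libraries, while the fold change between the times uses none. The error estimate of that fold change still comes from the fit of all 15 libraries. The adjusted p of the difference between the times lay between 5.8e-12 (CDKN1A) and 0.000177 (HSP90AB1). Opposite calls against the same DMSO libraries nearly imply such a difference, so these p-values give no separate support. Values are log2 fold changes against DMSO.

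The first set of genes was higher at 6 h and lower at 3 h. AURKA was at 0.82 at 6 h and -0.23 at 3 h, KIF20A at 0.93 and -0.29, and PLK1 at 0.83 and -0.31. HSPA1B was at 1.28 and -0.30, HSPA8 at 0.63 and -0.13, and HSP90AB1 at 0.11 and -0.11. DEDD2 was at 1.03 and -0.60, BRD8 at 0.88 and -0.22, BCL2L2 at 0.71 and -0.19, DDIT4 at 0.69 and -0.41, and SLC2A3 at 0.75 and -0.81. The reverse order, lower at 6 h and higher at 3 h, was seen for CDKN1A (-0.91 and 1.54), JUND (-0.23 and 0.94), INSIG1 (-0.82 and 0.49), DUSP2 (-0.53 and 0.27) and TNFRSF17 (-0.73 and 0.15).

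Other single genes were higher at 6 h and lower at 24 h. HSPA5 was at 0.51 at 6 h and -0.81 at 24 h, DNAJB11 at 0.40 and -0.35, HSPA8 at 0.63 and -0.25, and ADRM1 at 0.39 and -0.23. NOP2 was at 0.57 and -0.22, DKC1 at 0.51 and -0.30, NOP14 at 0.45 and -0.13, and IMPDH2 at 0.40 and -0.09. The zinc-responsive MT1X was at 0.91 and -0.79, SLC30A1 at 0.79 and -0.70, and HIST1H2BK at 0.85 and -0.33. Genes lower at 6 h and higher at 24 h were ESRP1 (-0.98 and 0.35), BMF (-0.72 and 0.23), PSMB8 (-0.49 and 0.34), PSMB9 (-0.46 and 0.37), CD8A (-0.41 and 0.38), TMSB4X (-0.36 and 0.20) and DUSP5 (-0.26 and 0.15). The decreases of PSMB8, PSMB9, CD8A, TMSB4X, DUSP5, DUSP2 and JUND did not pass with spike-in scaling.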

How the results depend on the processing

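Of 208 named genes, 149 kept their call and direction at 6 h against DMSO under every alternative tried and 59 did not. Scaling moved the counts most. With median-ratio scaling 4590 genes were lower than in DMSO, against 3 h 3105 were higher and 3581 lower, and with spike-in scaling these counts of lower genes were 995 and 232. Length correction gave 3223 higher and 3586 lower against 3 h. From 6 h to 24 h, spike-in scaling gave 1640 higher and 2037 lower. The spike-in shares of single libraries differ within groups, and 35 named genes lost their call there and 5 more lost it with a turned direction. Directions turned for CCND2 (-0.13 with median-ratio scaling, -0.15 with length correction), HSP90AB1 (-0.050 and -0.0015), EBP (-0.12), GAPDH (-0.13) and HDAC1 (-0.0028) with median-ratio scaling, and for COX8A (0.062), FKBP11 (0.0085), RPL4 (0.034), RPS26 (0.033) and RPS27 (0.0027) with spike-in scaling. The cause was not tested. Leaving out each library in turn gave 4725 to 5567 higher and 2595 to 3098 lower genes at 6 h against DMSO. With the replicate number as a block, 5388 were higher and 2996 lower, and 0 of the 208 named genes changed call. Blocked counts were 5153 and 1694 against 3 h and 4967 and 3182 from 6 h to 24 h, where same-numbered libraries did not all deviate together (r from -0.0989 to 0.133 against 3 h and from -0.00421 to 0.0922 against 24 h).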
